A study of Mus musculus with 9 samples.

Results

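Long intergenic noncoding RNAs (lincRNAs) of the mouse retina were examined by bulk RNA-Seq of 9 mice at P17. The 115 lincRNAs described here were all rows of the count table that carried the biotype lincRNA, lay on autosomes 1 to 19, and had at least 50 raw counts in every one of the 9 mice. They were drawn from 4915 autosomal lincRNA rows, of which 2524 had a count in any mouse, in a table of 54532 genes. All mice were wild-type C57BL/6. The 3 control mice were kept in room air and are labelled Control+DMSO. Whether their eyes were injected is not clear from the sources used here, and without it the effect of OIR and that of an injection cannot be told apart. The 3 OIR mice went through oxygen-induced retinopathy, in which pups are kept in high oxygen until P12 and then returned to room air, and they received the vehicle DMSO at P12. The 3 treated OIR mice went through the same model and received a single intraocular injection of the HIF inhibitor 32-134D at P12, at a dose of 70 ng in the labels (ng per μL in the protocol). Hypoxia-inducible factors (HIFs) are the transcription factors that switch on genes when oxygen is short. Each mouse is named by its group and the number in its label.

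A lincRNA is transcribed and often spliced like an mRNA but is not known to encode a protein. Some, such as Malat1 and Neat1, stay in the nucleus and form part of nuclear bodies. Others carry microRNAs or small nucleolar RNAs (snoRNAs) within their exons or introns, and others, such as Meg3 and H19, are expressed from 1 parental allele only.

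Total counts were 16028731 to 27213184 per mouse, and the 115 lincRNAs held 0.347% to 0.557% of them. Mouse 2 of the treated OIR group stood apart from the others, since crystallin genes of the lens took 15.8% of its counts and at most 0.184% in any other mouse. Rod markers were high in all 9 libraries, at a summed 34200 to 61100 CPM, which are counts scaled to a common library size, as befits the labelled tissue. Because the rule used the level in every mouse, the lincRNAs were chosen by their counts and the levels are given as a description. A lincRNA that fell to a low level in any mouse could not be a member. The last lincRNAs inside the rule were Gm26910 and Gm35721, each with a lowest count of 50, and the first outside it were Gm43660 and Lhx1os, each with a lowest count of 49. The minimum of 25 counts would have kept 182 lincRNAs and a minimum of 100 would have kept 67.

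The biotype was set against NCBI RefSeq by gene name, as a symbol or else a listed synonym on the same chromosome. Of the 115, 72 are long noncoding RNAs there, 33 had no single match, 8 are protein coding, 1 is a pseudogene and 1 a transcribed pseudogene. Tmem250-ps and 6330403K07Rik are among the 8. Others of the 8 were matched through a synonym to a gene with another symbol, so their biotype there is less certain. Positions are on GRCm38, since 112 of the 115 have the identical position in GENCODE M21. The median summed exon length was 2489 bases (378 to 20771), and 23 of the 115 consist of a single exonic block. Not all of them lay apart from other genes. Of the 115, 22 overlap the bounds of a protein-coding gene and 50 overlap some annotated gene, 24 of them on the same strand and 36 on the opposite strand, some on both. The count of 50 leaves out microRNA, snoRNA and scaRNA genes and genes of the biotype TEC. A further feature the rule did not use is that 25 start within 1000 bases of the start site of their nearest protein-coding gene, 23 of these on the opposite strand. The strand setting of the authors' counting is not given in the sources used here. For the overlapping pairs, reads of the lincRNA and of its partner therefore cannot be told apart.

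Small RNA genes lie within 16 of the 115 lincRNAs. There are 25 microRNA genes in 12 of them and 10 snoRNA or scaRNA genes in 6 of them. The library counts the host transcript and not the mature small RNA, and 21 of the 25 microRNA genes had 0 counts in all 9 mice. The host levels below are thus no measure of the microRNAs. Mir124a-1hg holds Mir124a-1 and Mir124-2hg holds Mir124a-2, the genes of miR-124, a microRNA of neurons and photoreceptors. Mature sequences for 16 of the microRNA genes were in RefSeq (GRCm38.p6). They are printed 5′ to 3′ with the seed (bases 2 to 8), which pairs with target mRNAs, in capitals. The first set shows microRNAs that are carried by lincRNAs named below or that have well-known roles in the nervous system. The same miR-9-5p lies in an exon of C130071C03Rik and an intron of Gm3764, so that 1 seed is encoded in both hosts, whereas the others each have a seed of their own.
miR-9-5p (C130071C03Rik, Gm3764): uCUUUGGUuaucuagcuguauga
let-7d-5p (6720427I07Rik): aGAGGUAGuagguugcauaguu
miR-101a-3p (E130102H24Rik): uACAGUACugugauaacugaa
miR-770-5p (Meg3): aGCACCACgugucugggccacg
miR-675-3p (H19): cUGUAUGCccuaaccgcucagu
miR-1839-5p (2900076A07Rik): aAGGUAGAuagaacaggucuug

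The second set comes from A230057D06Rik, a lincRNA on chr7:61704519-61928690 (− strand), which holds 11 microRNA genes, 7 of them named as miR-344 genes. It is shown because its 5p strands fall into a pair of seed groups. The seed GUCAGGC is shared by the first 4 and AGGCUUC by the last, which is the 5p strand of both miR-344e and miR-344h.
miR-344-5p: aGUCAGGCuccuggcuagauuccagg
miR-344b-5p: aGUCAGGCuccuggcuaaaguuc
miR-344c-5p: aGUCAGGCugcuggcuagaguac
miR-344d-3-5p: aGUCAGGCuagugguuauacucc
miR-344e-5p: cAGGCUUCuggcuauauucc

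The 5 host lincRNAs of these sequences that the naming rule did not select were named for their microRNAs. C130071C03Rik was between 4.82 and 5.31 log2 CPM in all 9 mice and Gm3764 between 3.42 and 4.83. For C130071C03Rik every control mouse was below every OIR and every treated OIR mouse, with log2 fold changes of 0.28 and 0.25 against control. A230057D06Rik lay between 2.17 and 3.78, 6720427I07Rik between 1.84 and 3.33, and E130102H24Rik between 1.43 and 2.76 log2 CPM. The smallest adjusted p over these 5 hosts and the 3 comparisons was 0.154, for C130071C03Rik in OIR against control mice (edgeR).

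A few lincRNAs held most of the counts. Mir124a-1hg and Mir124-2hg together took 29.5% of the counts of the 115, and with 1700020I14Rik, Malat1 and Meg3 the share was 52.7%. Per kb of gene length the order was different in its lower part. Mir124a-1hg was highest at 150.3 CPM per kb and Mir124-2hg next at 92.6, followed by A930003A15Rik at 66.2 and A330094K24Rik at 65.8. Behind them came 1700020I14Rik (Oip5os1 in RefSeq, also known as Cyrano) at 54.7, 2900097C17Rik (Norad in RefSeq, an RNA that binds Pumilio proteins) at 54.2, Malat1 at 42.9, Gm47543 at 41.2 (named after its values were seen) and Rncr4, a retinal noncoding RNA, at 38.8 CPM per kb. The median of the 115 was 4.86 and the lowest 0.583 CPM per kb. Between the highest and the lowest mouse, the level of a lincRNA ranged over a median of 0.93 on the log2 scale. The range was under 1 for 62 of the 115 and over 2 for 6, and it reached 4.97 for H19.

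Mir124a-1hg (ENSMUSG00000097545, chr14:64587331-64593961, + strand) was at 9.76, 9.19 and 8.41 log2 CPM in control mice 1, 6 and 7. It was at 9.09, 10.22 and 9.01 in OIR mice 3, 5 and 6. Treated OIR mice 2, 5 and 10 were at 9.37, 9.77 and 9.84. The groups overlapped, with OIR mouse 5 highest and control mouse 7 lowest. Mir124-2hg (ENSMUSG00000100252, chr3:17789921-17808970, + strand) was steadier, at 9.04, 8.98 and 8.89 in control, 9.15, 9.27 and 8.70 in OIR, and 8.84, 9.48 and 9.52 log2 CPM in treated OIR mice. 1700020I14Rik (chr2:119594297-119607502, + strand) ranged over 0.58 on the log2 scale across all mice, between 8.43 and 9.01 log2 CPM. None of these 3 abundant RNAs passed the test in any comparison, and the smallest adjusted p among them was 0.391, for Mir124-2hg in treated OIR against control mice (edgeR).

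**Figure D1:**
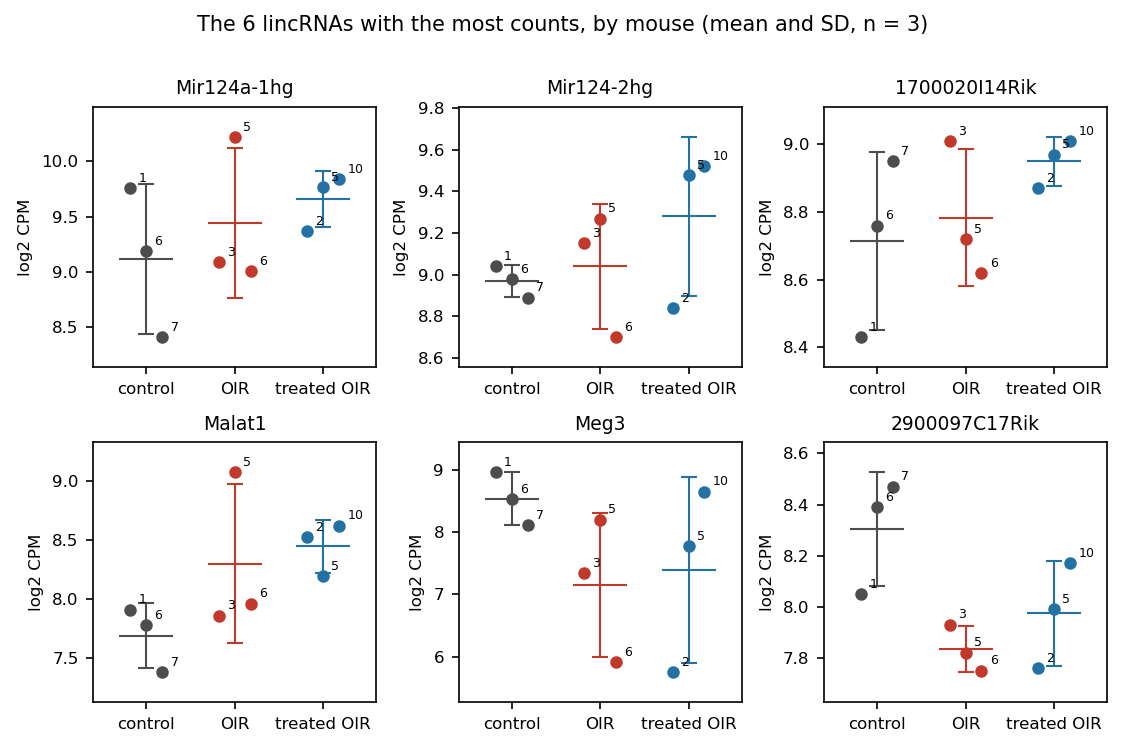
Level of the 6 lincRNAs with the most counts in each mouse, in log2 CPM (vertical axis of each panel, with its own scale), for control, OIR and treated OIR mice; points are mice with their label number, the horizontal line is the mean and the bars are the SD (n = 3). Meg3 spans 5.75 to 8.96, while Mir124-2hg stays between 8.70 and 9.52, and only 2900097C17Rik has all 3 OIR mice below all 3 control mice.

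The first question was which lincRNAs differed between retinas with pathological neovascularization and healthy retinas. A lincRNA was called when its Benjamini-Hochberg adjusted p over all 17540 genes tested was below 0.05 in edgeR's quasi-likelihood test, and all 115 were among the genes tested. In OIR against control mice, 1 lincRNA was called higher, where 0.433% of all genes were, and 0 were called lower, where 0.507% of all genes were. At an unadjusted p under 0.05 there were 14 higher, 12.2% against 11.1% of all genes, and 5 lower, 4.35% against 12.7% of all genes, which makes 16.5% against 23.8% in both directions. The control and OIR mice did not overlap for 20 lincRNAs that were higher, 17.4% against 15.9% of all genes, and for 7 that were lower, 6.09% against 17.2%. An absolute log2 fold change over 1 was seen for 3 of the 115 (2.61%), where 10.6% of all genes had one. The rule shut out lincRNAs with fewer than 50 counts in any mouse, a limit that the genes tested as a whole did not have. The smaller shares of falls and of large fold changes therefore cannot be told apart from an effect of the rule. The median log2 fold change was 0.11 for the 115 and 0.03 for all genes tested. The count depended on the tool and on 1 mouse. DESeq2 on all 9 mice called 5 of the 115 higher and 3 lower, where 4.44% and 6.93% of all genes were called. Without treated OIR mouse 2, edgeR called 7 of the 115 higher and 4 lower between the same control and OIR mice, with 3.95% and 8.59% of all genes. The other 455 autosomal lincRNAs tested, which had fewer than 50 counts in some mouse, did not overlap in 35 cases that were higher (7.69%) and 51 that were lower (11.2%), and edgeR called 0 of them.

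**Figure D2:**
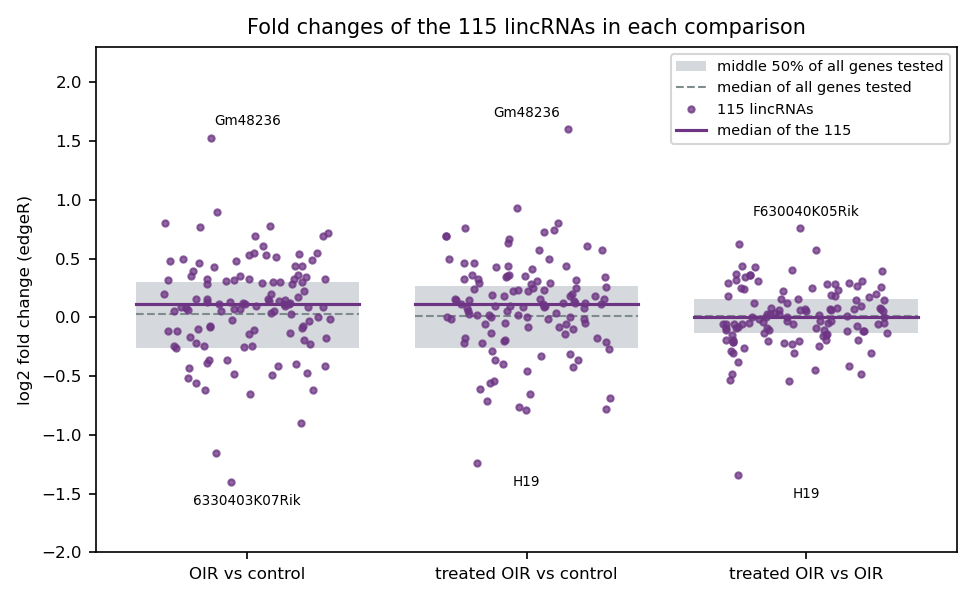
Log2 fold change of each of the 115 lincRNAs (points, spread sideways at random) in the 3 comparisons, with the median of the 115 (solid line), the median of all 17540 genes tested (dashed line) and the middle 50% of all genes (grey). The medians of the 115 are 0.11, 0.11 and -0.00, and Gm48236 is the highest point in both comparisons with control at 1.53 and 1.60.

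The lincRNA called higher in OIR was 5330413P13Rik (ENSMUSG00000086822, chr2:131820006-131847683, − strand), a long noncoding RNA of unknown role in RefSeq. Its level was 4.56, 4.24 and 4.42 log2 CPM in control mice 1, 6 and 7. OIR mice 3, 5 and 6 were at 5.09, 5.25 and 5.04. Every OIR mouse was above every control mouse. The means were 4.4 ± 0.160 and 5.13 ± 0.109 log2 CPM (SD, n = 3), and it rose 1.65-fold (log2 fold change 0.72, SE 0.134, adjusted p = 0.0485, edgeR). It stayed near this level in treated OIR mice 2, 5 and 10, at 5.37, 5.21 and 5.02, again above every control mouse. The call was close to the threshold: over 18 alternative fits it was kept in 9, with log2 fold changes of 0.64 to 0.81 and adjusted p of 0.000257 to 0.182, and leaving out any control or OIR mouse or treated OIR mouse 5 ended it. Its nearest protein-coding gene is Erv3, 5995 bases away on the same strand, and it overlaps the annotated genes Gm14282 on the same strand and Gm14281 on the opposite strand. The 4 endothelial markers moved in the same direction, with a summed 141 to 169 CPM in control, 278 to 331 CPM in OIR and 215 to 308 CPM in treated OIR mice. Other lists were also higher in OIR. The 3 astrocyte markers summed to 74.9 to 257, 293 to 783 and 142 to 384 CPM in the same order. The 5 bipolar cell markers summed to 977 to 1110, 1260 to 1400 and 887 to 1080 CPM. Median log2 fold changes in OIR against control were also positive for markers of Müller glia (0.37), microglia (0.38), horizontal cells (0.31) and lens (1.14). They were negative for rods (-0.14), cones (-0.16) and pigment epithelium (-0.6). Ganglion and amacrine cell markers were lower in OIR, as given below. The part of any of these cells in the result was not tested.

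AC159282.1 and Gm44196, both of unknown role, were the next closest to the threshold on the higher side. AC159282.1 (ENSMUSG00000112404, chr12:5808195-5984958, + strand) was at 1.98, 2.20 and 2.27 log2 CPM in control, 3.01, 3.05 and 3.07 in OIR, and 2.60, 2.92 and 2.72 in treated OIR mice. The 3 groups did not overlap, and the treated OIR mice lay between the other groups. Its log2 fold change in OIR against control was 0.90 (SE 0.186, adjusted p = 0.0576, edgeR), which did not pass the test. Gm44196 (ENSMUSG00000107614, chr6:98507726-98697674, − strand) was at 2.66, 2.82 and 2.97 in control, 3.73, 3.61 and 3.48 in OIR, and 3.71, 3.40 and 3.39 log2 CPM in treated OIR mice. Both kinds of OIR retina were above the control retinas. Its log2 fold change was 0.80 (SE 0.171, adjusted p = 0.0603, edgeR). AC159282.1 and Gm44196 were each called higher in 6 of the 18 alternative fits. With DESeq2 on all 9 mice their adjusted p was 0.000778 and 0.00155. CT025671.1 was also higher in every OIR mouse, at 3.14, 3.34 and 3.59 log2 CPM against 2.59, 2.81 and 2.39 in control mice (log2 fold change 0.77, SE 0.383, adjusted p = 0.258, edgeR).

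Gm48236 (ENSMUSG00000113741, chr12:35534421-35590446, + strand) had the largest difference of the 115. It was at 2.32, 2.02 and 1.76 log2 CPM in control and 3.39, 3.47 and 3.81 in OIR mice (log2 fold change 1.53, SE 0.554, adjusted p = 0.145, edgeR). Without treated OIR mouse 2 in the fit, the adjusted p for the same control and OIR mice was 0.00784 for Gm48236, 0.0397 for CT025671.1 and 0.0256 for AI504432, which was lower in OIR. Over the 18 alternative fits these lincRNAs were called in 5, 2 and 4, in that order, among them DESeq2 on the 2 groups for all 3. In treated OIR mice it was at 4.67, 2.86 and 2.21, so mouse 2 was the highest of all and mouse 10 was within the control range. Gm48236 starts 617 bases from the start site of Ahr, the aryl hydrocarbon receptor, and overlaps it on the opposite strand. Ahr, named after its values were seen, was at 5.63, 5.65 and 5.36 in control, 6.55, 6.40 and 6.83 in OIR, and 7.32, 6.04 and 5.72 log2 CPM in treated OIR mice. Mouse by mouse, the lincRNA and Ahr were high in the same animals. Its log2 fold change was 1.05 (SE 0.360, adjusted p = 0.130, edgeR), and without strand the 2 genes' reads cannot be told apart where they overlap.

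Among lincRNAs that were lower in OIR, Tmem250-ps (ENSMUSG00000087679, chr2:26136814-26140521, − strand) was the closest to the threshold. It was at 5.56, 5.74 and 5.70 log2 CPM in control, 5.13, 5.35 and 5.31 in OIR, and 5.19, 5.08 and 5.05 in treated OIR mice. Every OIR mouse of either kind was below every control mouse. The log2 fold change was -0.40 in OIR against control (SE 0.0990, adjusted p = 0.0716, edgeR). Tmem250-ps was called lower in 5 of the 18 alternative fits, among them DESeq2 on all 9 mice (adjusted p = 0.00905). As the symbol marks it as a copy of another gene, its count is uncertain where reads fit both. 2900097C17Rik, the Norad RNA, was at 8.05, 8.39 and 8.47 in control and 7.93, 7.82 and 7.75 log2 CPM in OIR mice (log2 fold change -0.48, SE 0.146, adjusted p = 0.106, edgeR). It was also called lower in 5 of the 18 alternative fits, among them DESeq2 on all 9 mice (adjusted p = 0.0233). Its treated OIR mice were at 7.76, 7.99 and 8.17 and overlapped both groups. AI504432, Gm45495 and Gm1976 were also lower in every OIR mouse than in every control mouse, with log2 fold changes of -0.90, -0.62 and -0.62 and adjusted p of 0.168, 0.180 and 0.286 (edgeR). Of the alternative fits, 1 called Gm45495 and 0 called Gm1976.

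**Figure D3:**
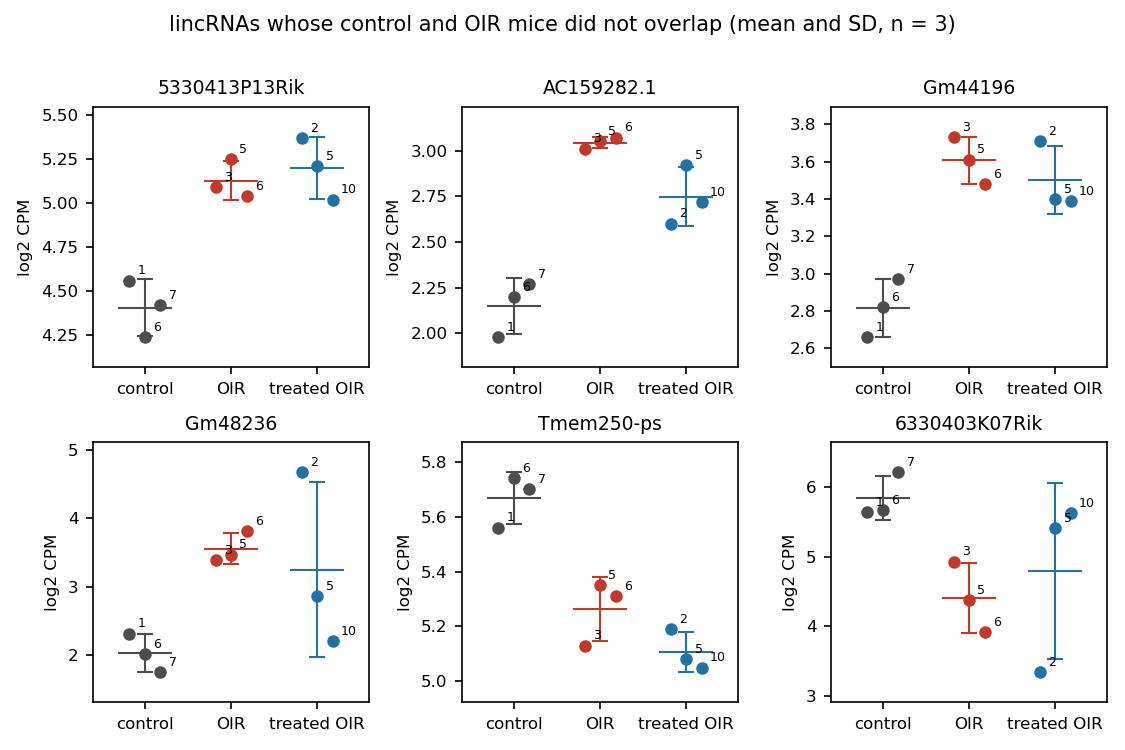
Level of 6 lincRNAs whose control and OIR mice did not overlap, in log2 CPM (each panel with its own scale), for control, OIR and treated OIR mice; points are mice with their label number, the horizontal line is the mean and the bars are the SD (n = 3). 5330413P13Rik is at 4.24 to 4.56 in control and at 5.02 to 5.37 in all 6 OIR mice, whereas Gm48236 and 6330403K07Rik spread widely among the treated OIR mice.

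Meg3 and 6330403K07Rik had the lowest fitted log2 fold changes in OIR, did not pass the test in the analysis reported, and varied between mice of a group. Meg3 (ENSMUSG00000021268, chr12:109541001-109571726, + strand), the maternally expressed RNA of the Dlk1-Dio3 imprinted locus, is abundant in neurons. It was at 8.96, 8.53 and 8.11 log2 CPM in control, 7.34, 8.20 and 5.91 in OIR, and 5.75, 7.77 and 8.65 in treated OIR mice. OIR mouse 6 and treated OIR mouse 2 were lowest, and OIR mouse 5 and treated OIR mouse 10 were within the control range. The log2 fold change in OIR against control was -1.15 (SE 0.697, adjusted p = 0.347, edgeR). It was -1.78 without OIR mouse 5 and -0.74 without OIR mouse 6, and 0 of the 18 alternative fits called it. 6330403K07Rik (ENSMUSG00000018451, chr11:71031941-71033513, − strand) was at 5.64, 5.67 and 6.21 in control, 4.93, 4.38 and 3.92 in OIR, and 3.34, 5.41 and 5.62 log2 CPM in treated OIR mice. All OIR mice were below the control mice, with a log2 fold change of -1.40 (SE 0.501, adjusted p = 0.143, edgeR). It was called lower in 5 of the 18 alternative fits. The adjusted p was 0.0277 with DESeq2 on all 9 mice, 0.0371 with limma-voom, 0.0175 with edgeR on the 2 groups, 2.57e-06 with DESeq2 on the 2 groups and 0.00877 with edgeR without treated OIR mouse 2.

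The same mice were low for the neighbouring RNAs of the locus. Rian, the next maternally expressed RNA of the locus and a snoRNA host, was at 6.98, 6.77 and 6.81 log2 CPM in control, 6.02, 6.17 and 4.74 in OIR, and 4.43, 6.64 and 7.18 in treated OIR mice. Mirg, the microRNA-rich RNA at its far end, ranged from -0.02 in treated OIR mouse 2 and 0.35 in OIR mouse 6 to 3.42 in control mouse 1. Of the 7 genes of the locus list 0 passed the test in either direction in the 3 comparisons, and their median log2 fold change in OIR against control was -1.09, with 4 below 0 and 3 above. The paternally expressed coding gene Dlk1 had the opposite sign, with a log2 fold change of 2.15 (SE 0.716, adjusted p = 0.124, edgeR). Miat, a nuclear lincRNA of neurons and retinal progenitors, was at 4.88, 4.32 and 4.29 in control and at 3.39, 3.47 and 0.74 in OIR mice. With 35 counts in OIR mouse 6 and 9 in treated OIR mouse 2, it was outside the rule.

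Markers of ganglion and amacrine cells were also lowest in OIR mouse 6 and treated OIR mouse 2. The mean of 6 ganglion cell markers was 6.85, 7.01 and 7.39 log2 CPM in control mice. It was 5.97, 5.21 and 3.45 in OIR mice 3, 5 and 6. Treated OIR mice 2, 5 and 10 had 2.11, 6.68 and 6.76. Their summed level was 1040 to 1330 CPM in control, 103 to 528 CPM in OIR and 40.5 to 918 CPM in treated OIR mice. The summed level of 6 amacrine cell markers was 603 to 738, 157 to 296 and 122 to 564 CPM in the same order. No marker of either list was at 0 in any mouse, and edgeR called 0 of the 6 in either list in OIR against control, with medians of -1.87 and -1.62. OIR mouse 5, with Meg3 in the control range, had ganglion and amacrine means of 5.21 and 4.19, below every control mouse. Other inner retinal neurons differed. In OIR mouse 6 and treated OIR mouse 2, bipolar means were 7.84 and 7.42 against 7.38 to 7.62 in control. Horizontal cell means were 3.87 and 3.44 against 3.30 to 3.94. In bulk retina, fewer cells of a type and less RNA per cell cannot be told apart. The part of any of these cells in the values of Meg3 and 6330403K07Rik was not tested.

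**Figure D4:**
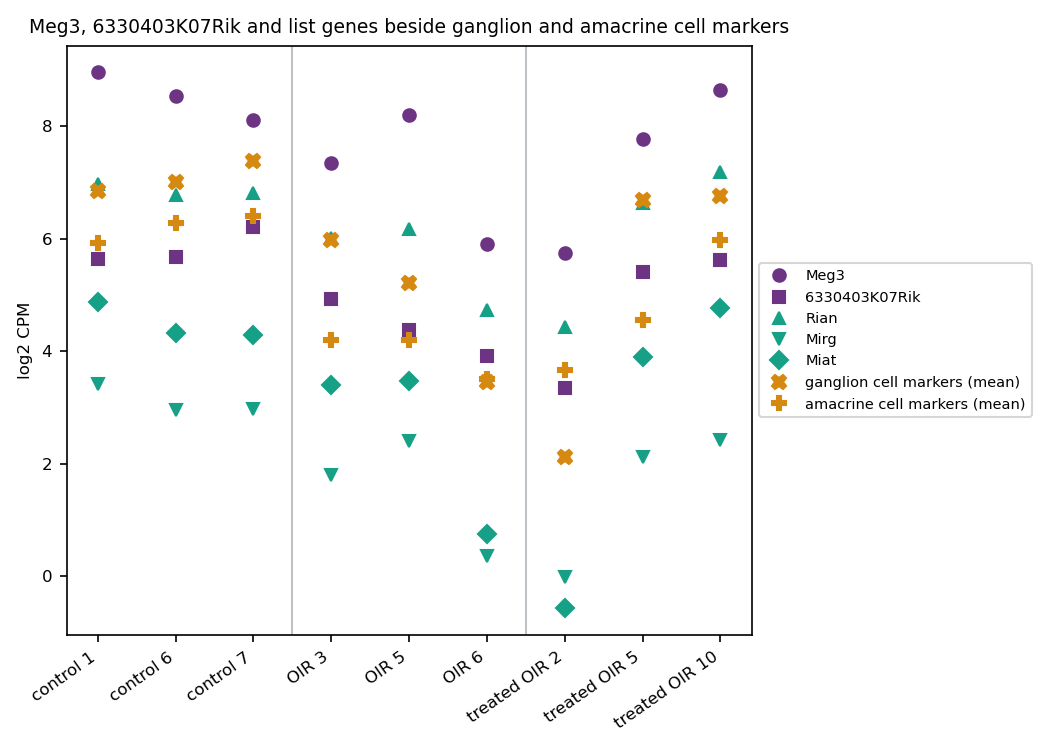
Log2 CPM (vertical axis) of Meg3 and 6330403K07Rik, of Rian, Mirg and Miat, and the mean log2 CPM of 6 ganglion cell and 6 amacrine cell markers in each of the 9 mice (horizontal axis, groups divided by grey lines). OIR mouse 6 and treated OIR mouse 2 are lowest for all 7 series, with Meg3 at 5.91 and 5.75.

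The nuclear body RNAs Malat1 and Neat1 did not pass the test in the analysis reported. Of the 18 alternative fits, 1 called Malat1, in treated OIR against control with DESeq2 on the 2 groups (adjusted p = 0.0262). Malat1 (ENSMUSG00000092341, chr19:5795690-5802672, − strand), a component of nuclear speckles, was at 7.91, 7.78 and 7.38 log2 CPM in control, 7.86, 9.07 and 7.96 in OIR, and 8.52, 8.19 and 8.62 in treated OIR mice. OIR mouse 5 was the highest, and all treated OIR mice were above all control mice. Its log2 fold change was 0.69 in OIR (SE 0.310, adjusted p = 0.214) and 0.74 in treated OIR (SE 0.311, adjusted p = 0.250), both against control with edgeR. OIR mouse 5 decided much of the first value, which was 0.20 without it. This mouse also had the largest share of all lincRNA counts, 0.668% against 0.443% to 0.625% in the others, and the part of this share in the result was not tested. Neat1 (ENSMUSG00000092274, chr19:5824708-5845478, − strand), the scaffold of paraspeckles, lies next to Malat1 and varied more, at 4.81, 3.92 and 2.79 in control, 3.52, 5.20 and 4.60 in OIR, and 4.91, 3.29 and 3.63 log2 CPM in treated OIR mice. Its log2 fold change in OIR against control was 0.53 (SE 0.600, adjusted p = 0.634, edgeR). Single mice decided this value, which was 0.09 without OIR mouse 5 and 0.16 without control mouse 7, but 0.86 without OIR mouse 3 and 1.13 without control mouse 1.

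The mRNAs of protein partners of these RNAs had small differences, and no protein was measured. All 12 genes of the list of paraspeckle and speckle proteins had a positive log2 fold change in OIR against control, as 53.5% of all genes did. The values lay between 0.02 and 0.31 with a median of 0.14. Of the 12, 1 had an unadjusted p under 0.05, where 23.8% of all genes did, and edgeR called 0. Sfpq, which encodes a paraspeckle protein that binds Neat1, had the largest fold change at 0.31 (SE 0.131, adjusted p = 0.198, edgeR). Among the 7 microRNA processing genes edgeR called 0 in either direction. Beside the same 23.8% of all genes, 1 of the 7 had an unadjusted p under 0.05. It was Dicer1, which cuts microRNA precursors, at 6.12, 6.25 and 6.07 log2 CPM in control and 6.58, 6.59 and 6.46 in OIR mice (log2 fold change 0.40, SE 0.0843, adjusted p = 0.0602, edgeR). Of the 7 microRNA host RNAs tested, including Mir124a-1hg and Mir124-2hg, edgeR called 0, the log2 fold changes lay between -0.58 and 0.66, and the median was 0.09.

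The list of snoRNA hosts included the members Snhg6, Snhg12, Snhg18, Snhg20 and Epb41l4aos. Introns of such hosts can release guides of ribosomal RNA modification. In Snhg6, Snhg18 and Epb41l4aos a snoRNA gene lies in an intron. The snoRNA genes of Snhg12 lie within its single exonic block, and Snhg20 holds a scaRNA and a microRNA gene but no snoRNA gene. Of the 15 tested in this list edgeR called 0, and the median log2 fold change in OIR against control was -0.18, with 11 below 0 and 4 above. Snhg18 lies 148 bases from the start of Sema5a, an axon guidance gene, on the opposite strand. It was at 2.72, 2.92 and 2.41 log2 CPM in control, 2.80, 3.15 and 3.52 in OIR, and 2.78, 2.61 and 2.72 in treated OIR mice. OIR mouse 6 was its highest mouse, and the 3 treated OIR mice were within the control range. Epb41l4aos was at 4.14, 3.60 and 3.91 in control and 3.74, 3.57 and 2.62 in OIR mice (log2 fold change -0.52, SE 0.289, adjusted p = 0.303, edgeR), and its fold change was -0.25 without OIR mouse 6. Snhg6 and Snhg12 were highest in treated OIR mouse 2, at 5.40 and 5.41 log2 CPM, where the other 8 mice were between 4.30 and 4.89 and between 4.14 and 5.01.

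H19 (ENSMUSG00000000031, chr7:142575529-142578143, − strand), an imprinted fetal RNA that is shut down in most tissues after birth, was the most variable of the 115. It was at 6.87, 4.98 and 2.46 log2 CPM in control mice 1, 6 and 7, and at 4.67, 5.74 and 6.46 in OIR mice 3, 5 and 6. Treated OIR mice 2, 5 and 10 had 5.75, 3.14 and 1.91. The control mice alone covered most of the range, and the groups overlapped. No comparison passed the test, with adjusted p of 0.967, 0.572 and 1.0 (edgeR). Igf2, the reciprocally imprinted growth factor gene of the locus, named after its values were seen, was at 2.08, 1.19 and 1.70 in control and 1.73, 2.15 and 2.76 log2 CPM in OIR mice. The other imprinted noncoding RNAs of the list ranged less, and edgeR called 0 of the 5 tested.

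The second question was how the retinas given 32-134D compared with healthy retinas. Of the 115, edgeR called 0 higher and 0 lower in treated OIR against control mice, where 0.0114% of all genes were called in each direction. At an unadjusted p under 0.05 there were 23 of 115, 20% against 18.6% of all genes. The groups did not overlap for 20 lincRNAs that were higher, 17.4% against 12.8% of all genes, and for 6 that were lower, 5.22% against 12.2%. Here too the smaller share of falls cannot be told apart from an effect of the rule. DESeq2 on all 9 mice called 4 higher and 3 lower, with 2.25% and 2.45% of all genes, and limma-voom called 6 and 3, with 2.62% and 2.66%. The median log2 fold change was 0.11 for the 115 and 0.01 for all genes.

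5330413P13Rik, Gm44196 and AC159282.1 were again above every control mouse, with log2 fold changes of 0.80, 0.69 and 0.61 (adjusted p of 0.102, 0.130 and 0.170, edgeR). Gm46404 lay lower in every control mouse, at 2.84, 2.77 and 2.71, than in every treated OIR mouse, at 3.56, 3.24 and 3.55 log2 CPM (log2 fold change 0.69, SE 0.173, adjusted p = 0.131, edgeR). Gm11110, which overlaps the cytokine gene Tnfsf9 on the opposite strand, was higher as well, with a log2 fold change of 0.76 (SE 0.307, adjusted p = 0.235, edgeR). Of the lincRNAs that were lower, Tmem250-ps had a log2 fold change of -0.56 (SE 0.0994, adjusted p = 0.102, edgeR). Gm28875 was at 3.96, 3.50 and 3.36 in control and 2.54, 3.07 and 2.90 log2 CPM in treated OIR mice (log2 fold change -0.79, SE 0.244, adjusted p = 0.171, edgeR). Over the 18 alternative fits of treated OIR against control, 5330413P13Rik and Tmem250-ps were each called in 3 and Gm44196 in 2. AC159282.1, Gm46404 and Gm28875 were each called in 1, and Gm11110 in 0. Both comparisons use the same 3 control mice, so the values are given side by side and their likeness is not a result.

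Meg3 and 6330403K07Rik were spread widely in treated OIR mice, with mouse 2 far below mice 5 and 10 in the values given above. Their log2 fold changes against control were -0.76 (SE 0.692, adjusted p = 0.574, edgeR) and -0.78 (SE 0.494, adjusted p = 0.418, edgeR). Without treated OIR mouse 2, which carried the lens crystallins, the fold changes were -0.29 for Meg3 and -0.33 for 6330403K07Rik, and without treated OIR mouse 10 that of Meg3 was -1.48. Gm48236 and CT025671.1 had log2 fold changes of 1.60 and 0.93 against control (adjusted p of 0.202 and 0.245, edgeR), and in both treated OIR mouse 2 was the highest of the 9 mice, at 4.67 and 4.32 log2 CPM. Without this mouse the values were 0.52 for Gm48236 and 0.28 for CT025671.1.

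The third question was whether 32-134D changed the level of any lincRNA within OIR. In treated OIR against OIR mice edgeR called 0 of the 115 in either direction, and 0 of all 17540 genes (0% in each direction). At an unadjusted p under 0.05 there were 2 of 115, 1.74% against 4.69% of all genes. DESeq2 on all 9 mice, DESeq2 on the 2 groups, edgeR on the 2 groups and limma-voom also called 0 of the 115. Of all genes, DESeq2 called 0.108% higher and 0.0798% lower on all 9 mice and 0.106% and 0.337% on the 2 groups, limma-voom called 0% and 0.0057%, and edgeR on the 2 groups called 0% in each direction. The groups did not overlap for 7 lincRNAs, 6.09% against 9.13% of all genes, of which 3 were higher and 4 lower in treated OIR. These smaller shares also cannot be told apart from an effect of the rule. The median log2 fold change was -0.00 for the 115 and 0.01 for all genes.

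The 2 with the smallest unadjusted p were Gm10605 and F630040K05Rik. Gm10605 (chr7:99625936-99631711, + strand) was at 2.91, 3.03 and 3.01 log2 CPM in control, 2.84, 2.97 and 2.91 in OIR, and 2.20, 2.29 and 2.61 in treated OIR mice. Control and OIR mice overlapped, and all 3 treated OIR mice were below them (log2 fold change -0.54 against OIR, SE 0.184, adjusted p = 0.990, edgeR). It overlaps Tpbgl on the opposite strand, which was itself at 4.35, 4.81 and 4.74 in control, 4.08, 4.42 and 4.52 in OIR, and 3.73, 4.12 and 3.94 log2 CPM in treated OIR mice (named after its values were seen). F630040K05Rik (chr17:45734506-45788594, + strand) was at 4.37, 4.44 and 3.33 in OIR and 4.88, 4.93 and 4.84 log2 CPM in treated OIR mice, while control mice were at 4.21, 4.99 and 4.98. OIR mouse 6 was lowest, and the log2 fold change against OIR was 0.76 (SE 0.300, adjusted p = 1.0, edgeR) and 0.48 without that mouse.

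AC159282.1, Snhg18 and Gm15706 were lower in every treated OIR mouse than in every OIR mouse, with log2 fold changes of -0.29, -0.48 and -0.30, and Gm46404 and 1700096K18Rik were higher, with 0.36 and 0.15 (adjusted p = 1.0 for all 5, edgeR). The value of Snhg18 was -0.28 without OIR mouse 6, and that of AC159282.1 was -0.19 without treated OIR mouse 2. For Meg3 and 6330403K07Rik the log2 fold changes were 0.39 and 0.62 (SE 0.689 and 0.497, adjusted p = 1.0 for both, edgeR), each smaller than the spread between the treated OIR mice. On leaving out 1 mouse they ranged from -0.33 (without treated OIR mouse 10) to 1.02 (without OIR mouse 5) for Meg3, and from 0.25 (without treated OIR mouse 10) to 1.08 (without treated OIR mouse 2) for 6330403K07Rik. A p that misses the threshold does not show that the treated and untreated OIR retinas were alike.

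**Figure D5:**
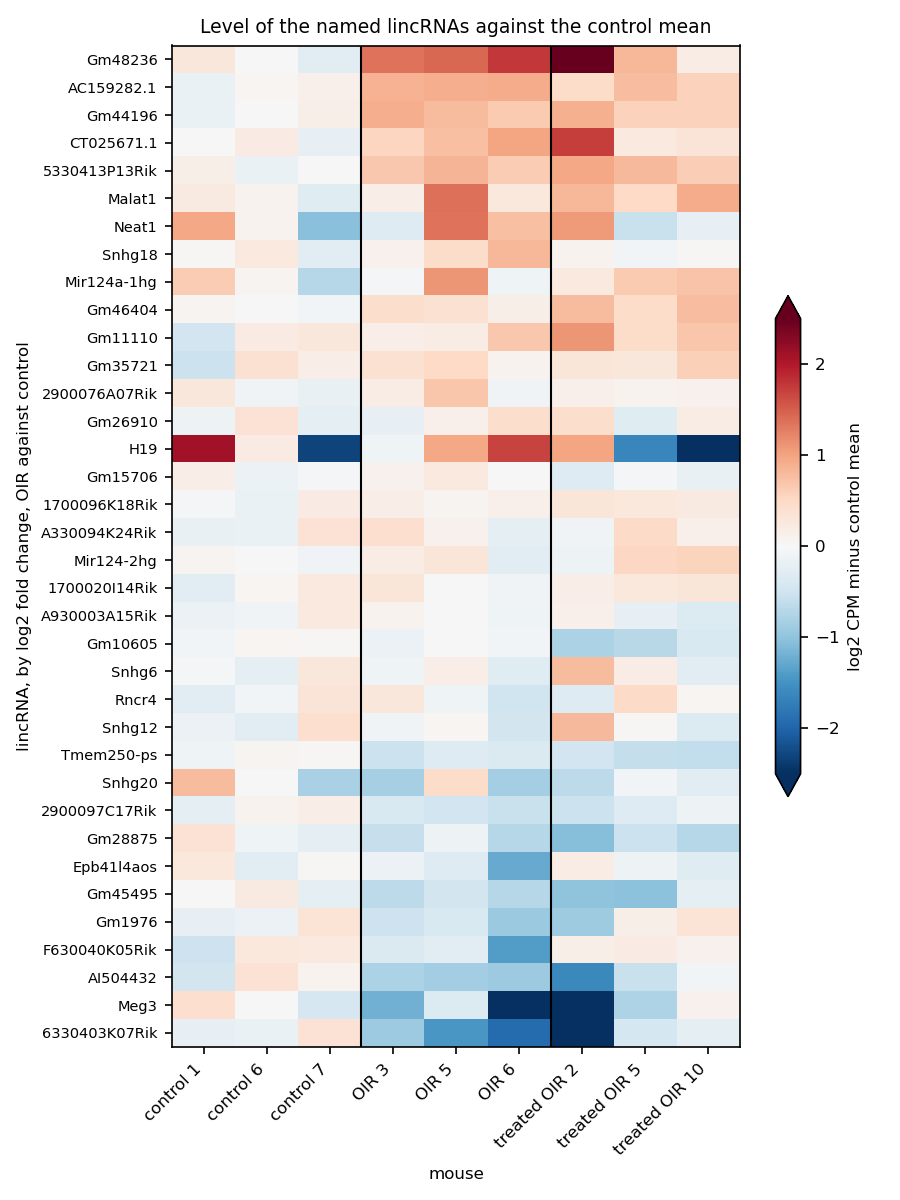
Level of the 36 named lincRNAs in each of the 9 mice as log2 CPM minus the mean of the 3 control mice (red higher, blue lower, colour limits at the ends of the scale), ordered by the fitted log2 fold change in OIR against control. The upper rows are red in all OIR mice, from Gm48236 (1.53) down, the lowest rows are blue, to 6330403K07Rik (-1.40), and H19 ranges from 1.91 to 6.87 log2 CPM without regard to group.

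The share of all counts held by the 115 together did not separate the groups. It was 0.480%, 0.420% and 0.359% in control, 0.409%, 0.557% and 0.373% in OIR, and 0.347%, 0.478% and 0.523% in treated OIR mice. OIR mouse 5 was highest and treated OIR mouse 2 lowest. The differences in the mean share were 0.0267 percentage points for OIR against control, 0.0298 for treated OIR against control and 0.00315 for treated OIR against OIR (two-sided exact permutation p = 0.7, 0.8 and 1.0, n = 3 in each group, where 0.1 is the smallest p the design allows). Each difference changed sign on leaving out 1 mouse. The 95% Wilson interval of a single mouse's share, for example 0.345% to 0.350% in treated OIR mouse 2, covers counting error only.

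Levels of the lincRNAs and of the nearest protein-coding genes were compared where both were tested, in 101 pairs. In OIR against control mice both fold changes had the same sign in 61 pairs, and Pearson's r across pairs was 0.32. For the 25 pairs whose start sites lie within 1000 bases, r was 0.43 with 15 pairs of the same sign. In treated OIR against control mice these values were 0.37 and 0.54, and in treated OIR against OIR mice they were 0.12 and -0.00. All pairs come from the same libraries and some overlap each other, so r is a description. The neighbour with the largest fold change in OIR was Rtl1, 17467 bases from Meg3 within the imprinted locus, with a log2 fold change of -1.60 (SE 0.951, adjusted p = 0.339, edgeR). It was Fsd2, 1810 bases from 2900076A07Rik, in treated OIR mice, at -1.42 (SE 0.869, adjusted p = 0.401, edgeR), a gene with at most 20 counts in any mouse.

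Since 32-134D acts on HIFs, promoters of the lincRNAs were searched for the core letters to which HIFs bind, ACGTG or GCGTG on either strand. RefSeq (GRCm38.p6) gave a promoter of 300 bases, 250 before and 50 after the start, for 56 of the 115. For 9 of these the listed start lies more than 1000 bases from the start in the file. Of the other 47, 22 (46.8%) held the letters, and of all 56, 28 (50%) did. Of all 32851 promoters that RefSeq lists this way, 43.8% held them. The median GC content was 55.7% in the 47 and 52.7% in all, and its part in the shares was not tested. The promoters of Malat1 and Meg3 are shown because Malat1 holds the letters, in capitals, and Meg3 does not. A match is a description and not a site. The first is at chr19:5802623-5802922 (− strand) and the second at chr12:109540746-109541045 (+ strand).
Malat1: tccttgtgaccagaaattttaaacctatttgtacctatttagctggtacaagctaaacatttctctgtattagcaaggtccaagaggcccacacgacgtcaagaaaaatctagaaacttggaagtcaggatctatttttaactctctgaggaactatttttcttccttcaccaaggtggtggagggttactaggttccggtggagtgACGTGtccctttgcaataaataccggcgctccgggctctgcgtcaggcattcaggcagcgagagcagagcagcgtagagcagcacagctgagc
Meg3: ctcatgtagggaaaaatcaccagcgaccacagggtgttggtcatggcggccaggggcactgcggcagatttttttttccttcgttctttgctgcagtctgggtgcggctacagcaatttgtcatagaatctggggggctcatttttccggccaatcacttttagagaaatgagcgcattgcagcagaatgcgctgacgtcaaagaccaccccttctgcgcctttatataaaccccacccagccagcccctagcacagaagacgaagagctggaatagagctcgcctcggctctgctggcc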

How the data were processed

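Retinal RNA of 9 mice, 3 control, 3 OIR and 3 treated OIR, was sequenced by the authors, and groups were taken from the labels. Whole-number counts for each gene, not normalized, were deposited by the authors in 1 table, beside the gene length. The submitters' processing notes name CASAVA and HISAT. The counting tool, annotation and strand setting are not given in the sources used here. Total counts were 16028731 to 27213184 per mouse, and counting error adds most to the spread between mice for the members near the count limit. P-values set a difference between group means against the spread between these mice.

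Counts were analysed with edgeR 4.0.16 (limma 3.58.1, R 4.3.3), with the default filter by group (17540 genes left), TMM factors, and 1 quasi-likelihood fit over all 9 mice. P-values were adjusted over all genes tested, with a threshold of 0.05. Log2 CPM used a prior count of 2. The members' count shares were compared by exact permutation. Alternatives were DESeq2 1.42.0 and edgeR on all mice or on the 2 groups compared, limma-voom with quality weights, other scalings, other filters, and fits without 1 mouse at a time. A sex covariate, read from sex-linked counts, was added after the data were seen. By these counts 1 control, 1 OIR and 2 treated OIR mice were female.

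Members are the lincRNA rows on autosomes 1 to 19 with at least 50 counts in every mouse. The members and the gene lists were chosen with earlier results of these data known. Named are members on the lists, the 5 with the most counts per kb, called members, the 4 largest rises and 4 largest falls without overlap in each comparison, those nearest the count limit, and the member whose neighbour changed most. Genes outside this rule are marked as named after their values were seen. The fit was tested on simulated data: for OIR against control, edgeR recovered 41 of 100 2-fold and 92 of 100 4-fold changes over 17540 genes, and 10 of 143 calls were false. The simulated counts had the same dispersion (spread between mice) for every gene and no outlying mouse such as treated OIR mouse 2. These rates therefore need not hold for the real data.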

Additional observations from a re-analysis of the deposited data

How the results depend on the processing

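No paired analysis was possible because the groups compared share fewer than 2 replicate numbers and the numbers name separate animals. Read as higher and lower members, OIR against control gave 1 and 0 in the analysis reported. DESeq2 on all 9 mice gave 5 and 3, limma-voom 8 and 4 (5.23% and 7.91% of all genes), edgeR on the 2 groups 5 and 4 (2.88% and 7.44%), and DESeq2 on the 2 groups 8 and 5 (5.58% and 10%). A filter of 10 counts in every mouse gave 3 higher (1.17%), while total counts alone, sex as a covariate (chosen after seeing the data), and an added limit of an absolute log2 fold change above 1 each gave 0. Leaving out 1 mouse gave 0 to 7 higher and 0 to 4 lower, and both upper values came without treated OIR mouse 2, when 3.95% and 8.59% of all genes were called. For treated OIR against control, 0 and 0 in the analysis reported, DESeq2 on all 9 mice gave 4 and 3, limma-voom 6 and 3, and DESeq2 on the 2 groups 2 and 1 (1.09% in each direction). For treated OIR against OIR every alternative gave 0 and 0, and 14 members in place of 7 did not overlap with total counts alone, when 12.2% of all genes did not. The cause of these differences was not tested, except that fewer mice enter the fits on 2 groups and those that leave out a mouse. On leaving out 1 mouse, the difference in the members' share of counts ranged from -0.0289 to 0.0635 percentage points for OIR against control, -0.00705 to 0.0809 for treated OIR against control, and -0.0337 to 0.0587 for treated OIR against OIR. Minimums of 25 and 100 counts would give 182 and 67 members. Under the 18 alternatives, the log2 fold changes of many named members changed sign. In OIR against control, that of H19 ranged from -0.42 to 1.58 and that of Mir124a-1hg from -0.17 to 0.70. In treated OIR against control, that of Neat1 ranged from -0.61 to 0.65. In treated OIR against OIR, that of Gm48236 ranged from -0.98 to 0.47. That of Meg3 in treated OIR against OIR was -0.02 without OIR mouse 6 and -0.33 without treated OIR mouse 10. It ranged up to 1.02, without OIR mouse 5, and was called in no alternative. Fold changes of named genes that are no members were not recomputed.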

Other observations

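The list of neural noncoding RNAs had 16 genes tested, 4 of them members. Of the 16, edgeR called 0 in the 3 comparisons, and 4 had an unadjusted p under 0.05 in OIR against control, where 23.8% of all genes did. Pantr1, a lincRNA of the developing brain, had the lowest value, with -0.04, -0.16 and 0.83 log2 CPM in control and -1.07, -2.76 and -1.62 in OIR mice (log2 fold change -2.34, SE 0.894, adjusted p = 0.159, edgeR). Rmst, a neurogenic lincRNA, was at 2.32, 2.42 and 1.81 in control and 0.90, 1.81 and 1.15 log2 CPM in OIR mice (log2 fold change -0.90, SE 0.351, adjusted p = 0.168, edgeR). Tug1, a noncoding RNA found in photoreceptor development, was at 6.45, 6.66 and 6.49 in control, 6.84, 6.89 and 6.80 in OIR, and 6.81, 6.72 and 6.87 log2 CPM in treated OIR mice (log2 fold change 0.31 in OIR, SE 0.0881, adjusted p = 0.0963, edgeR). Among the snoRNA hosts that are no members, Snhg8 was at 4.67, 4.50 and 4.85 in control and 4.25, 4.08 and 3.69 log2 CPM in OIR mice (log2 fold change -0.66, SE 0.181, adjusted p = 0.0882, edgeR).

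Snhg11, a neuronal snoRNA host with the biotype protein coding in the file, varied with the same mice as Meg3. It was at 8.15, 7.81 and 7.25 log2 CPM in control. OIR mice 3, 5 and 6 were at 6.22, 7.24 and 4.85. Treated OIR mice 2, 5 and 10 had 4.98, 6.76 and 7.81. Sox2ot, a noncoding RNA that overlaps Sox2, was at 4.67 log2 CPM in treated OIR mouse 2, which carried the lens crystallins, and at 2.5 to 3.34 in the other 8 mice.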
